A study of Mus musculus with 21 samples.

Results

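Tmem119, Dmwd, Tgm2 and Cdh17 are 4 of the 11736 genes in a deposited expression table of cultured mouse natural killer (NK) cells. They were chosen by measured values: their RPKM was low in cells lacking Ikaros (gene Ikzf1), and Tmem119 and Dmwd moved the other way in cells lacking Aiolos (gene Ikzf3). The values of Ikzf1 KO and Ikzf3 KO cells against Cre only cells therefore chose the genes and are given here as a description, with no test. The libraries of the double knockout (DKO), which lacks both factors, were not used in the choice, and tests are given for DKO against Cre only cells and, for Tgm2 and Cdh17, against Ikzf3 KO cells. NK cells were sorted from the spleen of mice with deletions restricted to NK cells, and kept in medium with human IL-15 at 50 ng/ml. The table held 4 Cre only libraries (S16 to S19), 4 of Ikzf1 KO (S12 to S15), 4 of Ikzf3 KO (S1 to S4) and 3 of DKO (S5 to S7). All 4 groups share the culture, and the control mice carry the Cre recombinase without a deleted target. The labels name neither the promoter driving Cre, nor the deleted exons, nor the age of the mice. They speak of biological replicates without saying whether each came from its own mouse, so the spread between libraries may be partly technical. The column names give the genotype only, and the group sizes match the cultured cells. The 6 directly sorted samples are not analysed here.

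Ikaros and Aiolos are zinc finger transcription factors of lymphocytes that bind DNA as dimers at sites built around the letters GGGAA and can recruit the NuRD corepressor complex. The 4 genes encode unrelated proteins. Tmem119 is a single-pass membrane protein known as a marker of microglia and as a factor in bone formation. Dmwd is a WD-repeat protein whose gene lies next to the myotonic dystrophy kinase gene Dmpk. Tgm2 is tissue transglutaminase, an enzyme that crosslinks proteins and also binds GTP. Cdh17 is a cadherin of the intestinal epithelium and of B lineage cells that joins cells in a calcium-dependent way.

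Values are RPKM (reads per kilobase of exon, scaled for depth), so levels can be compared between genes. The recovered reads ran from 8.613 to 21.25 M reads per library in the 11291 genes whose values came out as whole reads within 0.02 read. The deleted genes checked the labels: Ikzf1 averaged 61.9 ± 5.22 RPKM (SD, n = 4) in Cre only, 19.1 ± 0.662 (SD, n = 4) in Ikzf1 KO and 30.3 ± 7.12 (SD, n = 3) in DKO cells. Ikzf3 averaged 41.8 ± 3.68 RPKM (SD, n = 4) in Cre only, 17.8 ± 2.37 (SD, n = 4) in Ikzf3 KO and 21.5 ± 1.96 (SD, n = 3) in DKO cells. RNA of the deleted genes was thus lowered and not absent. Ikzf1 averaged 81.4 ± 6.34 RPKM (SD, n = 4) in Ikzf3 KO, and Ikzf3 48.3 ± 1.52 (SD, n = 4) in Ikzf1 KO cells. Each lay above every Cre only library, as for 7.68% of genes in Ikzf3 KO and 11.6% in Ikzf1 KO cells. The defining NK cell genes Ncr1 and Klrb1c were present in every library, at 80.7 RPKM or more and 100 RPKM or more. An earlier look at these data had found that S3 and S4 stood apart within the Ikzf3 KO group. It had also found that S5, S15, S18 and S19 shared a difference that ran across genotypes. Values without these libraries are given where they change a result.

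Dmwd (ENSMUSG00000030410) lies on chromosome 7, positions 19076227 to 19082776 of mm10, plus strand. Its upstream sequence is shown because the RefSeq promoter table (GRCm38.p6) held a sequence for only 1 of the 4 genes, Dmwd. The core bound by Ikaros proteins, TGGGAA, was searched in it. The stretch below is chr7:19075950-19076111, plus strand, 162 bases that end 89 bases before the annotated start site used here, at 19076200. It stops there because the RefSeq start of the gene lies just past it, so offsets depend on the start chosen. Capitals mark TTCCCA, the core TGGGAA read on the minus strand.
Dmwd upstream: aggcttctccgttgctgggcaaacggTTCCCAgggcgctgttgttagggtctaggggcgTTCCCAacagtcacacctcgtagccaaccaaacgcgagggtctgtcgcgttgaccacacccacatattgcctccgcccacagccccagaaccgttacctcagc
The matches start 224 and 191 bases before the start site at 19076200, given as offsets of -224 and -191. In the whole window of 300 bases, TGGGAA was searched on both strands and found 2 times, the Runx core TGTGGT 1 time, and the AP-1 site TGANTCA 0 times. Of 32817 promoter windows of this length, 25.6% held TGGGAA at least once and 3.79% at least 2 times. TGTGGT was held by 16.8% of windows and TGANTCA by 7.81%. A match of letters is a description of the sequence, and no binding data were used here.

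Tmem119 (ENSMUSG00000054675, chromosome 5, positions 113793729 to 113800516 of mm10, minus strand) was the gene with the widest range. In Cre only cells it stood at 6.69, 11.7, 5.45 and 1.06 RPKM in S16 to S19. In Ikzf1 KO cells it stood at 0.0979, 0.321, 0.0868 and 0.096 RPKM in S12 to S15, which is 3 to 9 reads per library. The groups did not overlap, as for 13.2% of genes that lay lower in all Ikzf1 KO libraries, and the Ikzf1 KO mean was 2.42% of the Cre only mean. In Ikzf3 KO cells Tmem119 stood at 27.0, 30.1, 58.6 and 19.4 RPKM in S1 to S4, all above the highest Cre only library, as for 7.68% of genes. The Ikzf3 KO mean of 33.7 ± 17.2 RPKM (SD, n = 4) was 5.43 times the Cre only mean of 6.21 ± 4.36 (SD, n = 4). In DKO cells there were 0 reads in S5, 0 in S6 and 15 in S7, or 0.418 RPKM in the last. A count of 0 allows up to 3 reads by counting error alone, which is 0.087 RPKM in S5 and 0.0636 RPKM in S6. The order of levels was thus Ikzf3 KO, Cre only, and then Ikzf1 KO and DKO, whose libraries overlapped.

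Dmwd followed the same order at a narrower range. It stood at 5.60, 9.94, 9.44 and 5.03 RPKM in Cre only libraries S16 to S19. In Ikzf1 KO libraries S12 to S15 it stood at 0.554, 0.323, 0.446 and 0.522 RPKM, from 10 to 30 reads. The Ikzf1 KO mean of 0.461 ± 0.103 RPKM (SD, n = 4) was 6.15% of the Cre only mean of 7.50 ± 2.55 (SD, n = 4). Ikzf3 KO libraries S1 to S4 held 15.3, 15.2, 33.6 and 17 RPKM, again all above the highest Cre only library. Their mean of 20.3 ± 8.92 RPKM (SD, n = 4) was 2.70 times that of Cre only cells, and S3 was the highest library for Dmwd as for Tmem119. DKO libraries S5 to S7 held 0.289, 0.096 and 0.808 RPKM, a spread that took in all 4 Ikzf1 KO libraries.

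Tgm2 (ENSMUSG00000037820, chromosome 2, positions 158116402 to 158146436 of mm10, minus strand) was low in every deleted genotype. It stood at 21.2, 21, 9.56 and 8.35 RPKM in Cre only libraries S16 to S19. Ikzf1 KO libraries S12 to S15 held 1.71, 2.04, 2.08 and 0.569 RPKM, and Ikzf3 KO libraries S1 to S4 held 3.38, 2.89, 1.03 and 1.00 RPKM. All 8 single knockout libraries lay below the lowest Cre only library. Taken alone, the Ikzf1 KO libraries did so for 13.2% of genes and the Ikzf3 KO libraries for 10.5%. The share of genes for which both did was not computed. The Ikzf1 KO mean was 10.7% and the Ikzf3 KO mean 13.8% of the Cre only mean, so the name Ikaros-dependent covers only part of what Tgm2 did. DKO libraries S5 to S7 held 0.306, 1.54 and 3.46 RPKM, and the 3 deleted genotypes overlapped one another. The libraries S5, S15, S18 and S19 were the lowest of their groups for Tgm2 in DKO, Ikzf1 KO and Cre only cells. The part of this difference across genotypes in the Tgm2 values was not tested beyond leaving the 4 libraries out. On the opposite strand 370 exon bases of Tgm2 are shared with Rprd1b, and whether counting used strand is not given in the sources used here. Rprd1b averaged 11.8 ± 0.576 RPKM (SD, n = 4) in Cre only and 12.9 ± 0.497 (SD, n = 4) in Ikzf1 KO cells.

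Cdh17 (ENSMUSG00000028217, chromosome 4, positions 11758147 to 11817895 of mm10, plus strand) was graded over the genotypes. Cre only libraries S16 to S19 held 4.68, 4.85, 12.5 and 7.78 RPKM. Ikzf3 KO libraries S1 to S4 held 5, 3.97, 1.69 and 1.16 RPKM, so S1 lay above the Cre only libraries S16 and S17. Ikzf1 KO libraries S12 to S15 held 1.10, 1.25, 1.03 and 0.954 RPKM, a tight group that reached the lowest Ikzf3 KO library. DKO libraries S5 to S7 held 0.165, 0.504 and 0.520 RPKM, from 11 to 46 reads, and lay below every library of the other 3 genotypes. Taken singly, this held for 19% of genes against Cre only, 11.9% against Ikzf3 KO and 17.3% against Ikzf1 KO. The share of genes for which all 3 held was not computed. The means stood at 7.46 ± 3.68 (SD, n = 4), 2.96 ± 1.83 (SD, n = 4), 1.09 ± 0.128 (SD, n = 4) and 0.396 ± 0.200 (SD, n = 3) RPKM for Cre only, Ikzf3 KO, Ikzf1 KO and DKO. Neighbours in that order overlapped except for Ikzf1 KO and DKO.

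**Figure D1:**
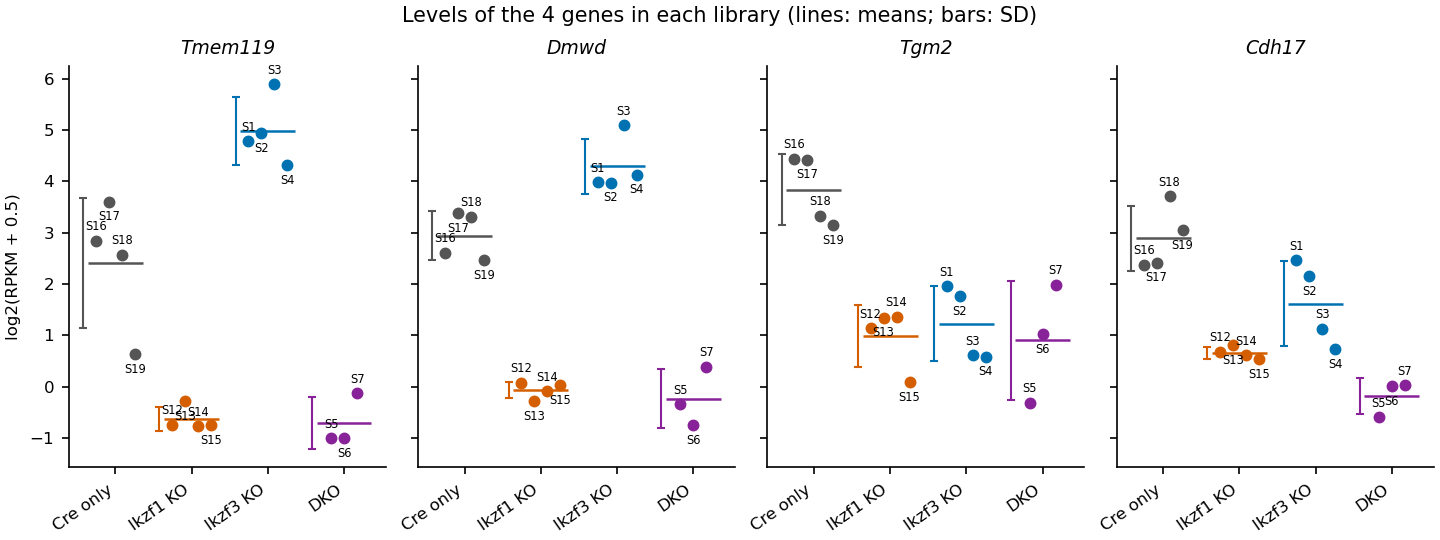
Level of each gene, as log2(RPKM + 0.5), in each of the 15 libraries by genotype. Points are libraries, horizontal lines are group means and vertical bars are 1 SD. Tmem119 and Dmwd are highest in the Ikzf3 KO libraries and near the floor in Ikzf1 KO and DKO, Tgm2 is low in all 3 deleted genotypes, and Cdh17 is lowest in DKO.

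All differences below come from limma on log2(RPKM + 0.5), fitted over the 10032 genes with at least 1 RPKM in at least 3 libraries, and understate the change of low values. All 4 genes passed this filter. Each passed through the groups where it was high. In the contrast that chose them, Ikzf1 KO against Cre only, the log2 changes were -3.05 ± 0.49 (SE) for Tmem119, -3.01 ± 0.30 for Dmwd, -2.85 ± 0.49 for Tgm2 and -2.23 ± 0.36 for Cdh17. These rank 2, 3, 4 and 10 among the falls in size, in a contrast where 2.78% of genes were called lower. In Ikzf3 KO against Cre only cells the changes were 2.56 ± 0.49 for Tmem119, 1.35 ± 0.30 for Dmwd, -2.60 ± 0.49 for Tgm2 and -1.27 ± 0.36 for Cdh17, where 6.3% of genes were called higher and 7.88% lower. The value for Cdh17 rested on S3 and S4, and was -0.58 ± 0.32 without them. The value for Tmem119 was 3.37 with S16 and S17 left out and 1.75 with S18 and S19 left out, and its Ikzf1 KO value was -2.24 and -3.86 in the same order.

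DKO cells were set against Cre only cells to ask whether the genes are also low when both factors are missing. It shares the Cre only libraries with the choice of the genes but uses DKO libraries that the choice did not. The Cre only values helped to choose the genes, so the falls may be overstated. The p-values are therefore not independent of the choice. All 4 genes fell, where 10.6% of genes were called lower. Tmem119 fell by 3.12 ± 0.53 (SE) on the log2 scale (adjusted p = 0.00101, limma with Benjamini-Hochberg adjustment over all genes, as for every adjusted p here). Dmwd fell by 3.18 ± 0.32 (adjusted p = 1.08e-05). Cdh17 fell by 3.07 ± 0.39 (adjusted p = 8.23e-05). Tgm2 fell by 2.93 ± 0.53 (adjusted p = 0.00168). For each gene the 3 DKO libraries lay below all 4 Cre only libraries, as they did for 19% of the genes tested. The ratio of Cre only to DKO mean RPKM was 44.6 for Tmem119, whose DKO mean comes wholly from the 15 reads of S7, 18.9 for Dmwd, 8.48 for Tgm2 and 18.8 for Cdh17. The calls held under all 28 alternatives tried, each of which kept Cre only libraries and so shares this limit. Those that changed only the filter, or left out only Ikzf1 KO or Ikzf3 KO libraries, could not move the log2 change. In them only the SE and the adjusted p could change.

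**Figure D2:**
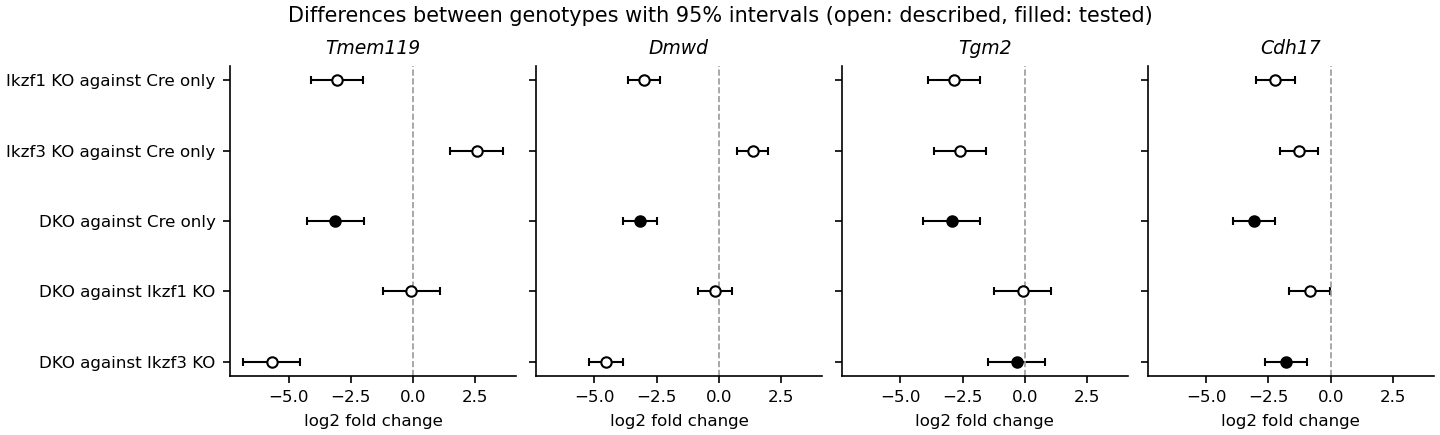
Log2 fold changes with 95% confidence intervals from limma, for 5 contrasts between genotypes. Open circles are described only and filled circles tested; DKO against Cre only is tested although it shares the Cre only libraries with the choice of the genes. DKO against Cre only lies near -3 for all 4 genes. DKO against Ikzf1 KO, described only, lies at -0.07 for Tmem119, -0.17 for Dmwd, -0.09 for Tgm2 and -0.85 for Cdh17.

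T cell genes moved with the DKO group, so they are given beside these falls. Of 11 T cell genes 9 had a row and 6 passed the filter, of which 4 (Cd3d, Cd3e, Trac and Trbc2) rose in DKO cells, where 8.06% of all genes were called higher. Their summed level ran from 582 to 1220 RPKM in DKO and from 164 to 362 RPKM in Cre only libraries, and from 221 to 281 RPKM in Ikzf1 KO libraries. Cd4 averaged 0.94 RPKM and Cd8a 0.0438 RPKM in DKO cells. Other markers moved in DKO cells too: 5 of 14 NK cell genes tested fell, Prf1 among them, and 5 of 7 ILC1 genes tested rose. In DKO cells 10.6% of all genes were called lower. Some moved in the single knockouts as well. In Ikzf1 KO cells 2 of the 14 fell (Prf1 and Itga2) and 2 of the 7 rose (Tmem176a and Tmem176b). There 2.78% of all genes were called lower and 3.54% higher. In Ikzf3 KO cells 4 of the 14 and 1 of the 7 fell, where 7.88% of all genes were called lower. The part of these genes in the falls was not tested. In bulk RNA, fewer cells carrying a transcript and less of it per cell cannot be told apart.

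The comparison of DKO with Ikzf1 KO cells asks what deleting Ikzf3 adds once Ikzf1 is deleted. Remaining Ikzf1 RNA was not equal, at 25.3 to 38.4 RPKM in DKO and 18.3 to 19.9 RPKM in Ikzf1 KO libraries. Its part in the differences was not tested. The comparison contains the Ikzf1 KO values that chose the genes, so the differences are described without a test. The log2 difference was -0.07 ± 0.53 (SE) for Tmem119, -0.17 ± 0.32 for Dmwd and -0.09 ± 0.54 for Tgm2, and the libraries of both groups overlapped for each. Tmem119 had little room to go lower. With 0 reads in every DKO library the differences could reach no further than -0.36 for Tmem119 and -0.94 for Dmwd, because 0 RPKM stands at -1 on this scale. A further fall of Tmem119, smaller than its SE, was thus not detectable on this scale. For Cdh17 the difference was -0.85 ± 0.39, and every DKO library lay below every Ikzf1 KO library, as for 17.3% of genes.

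The comparison of DKO with Ikzf3 KO cells asks what deleting Ikzf1 does once Ikzf3 is deleted. For Tgm2 and Cdh17 it shares no library with the Ikzf1 KO contrast, although their Ikzf3 KO values were known when the genes were picked. Cdh17 fell by 1.81 ± 0.39 (SE) on the log2 scale (adjusted p = 0.00498), where 9.85% of genes were called lower, and all 3 DKO libraries lay below all 4 Ikzf3 KO libraries, as for 11.9% of genes. Without S3 and S4 its difference was -2.50 ± 0.33 (adjusted p = 0.000275). Tgm2 differed by -0.33 (95% confidence interval -1.47 to 0.82, adjusted p = 0.68) and its groups overlapped. Without S3 and S4 the Tgm2 difference was -0.96 ± 0.60 (adjusted p = 0.29), and it was 0.28 without S5. Tmem119 and Dmwd differed by -5.69 ± 0.53 and -4.53 ± 0.32, given without a test because their Ikzf3 KO values are part of the choice. The mean RPKM of Dmwd was 51 times higher in Ikzf3 KO than in DKO cells. The high levels in cells lacking only Aiolos were thus not seen in cells lacking both factors.

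Set against the sum of the single deletions, the DKO values departed by -2.63 ± 0.73 (SE) for Tmem119 and -1.52 ± 0.43 for Dmwd on the log2 scale. The departure was 2.52 ± 0.73 for Tgm2 and 0.42 ± 0.53 for Cdh17. They are described without a test, since they contain the contrasts that chose the genes. Adding the single changes would have placed Tmem119 and Dmwd higher and Tgm2 lower in DKO cells than they were. For Tgm2 the sum would lie at -1.62, below the -1 that 0 RPKM gives on this scale. The scale thus fixed the sign of its departure but not its size, as the DKO mean stood at 0.9. For Cdh17 the sum lay within 1 SE of the DKO value.

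Over the 15 libraries Tmem119 and Dmwd correlated at r = 0.969 (Spearman's rho = 0.96), a value carried by genotype and given as a description. As deviations from group means, which take genotype out, they correlated at 0.673, with S3, S17 and S7 high and S19 low for both. Tgm2 and Cdh17 correlated at r = 0.772 (rho = 0.704) over the libraries and at 0.319 as deviations. These genes parted in Cre only cells, where S16 and S17 were the higher pair for Tgm2 and S18 and S19 for Cdh17. In Ikzf3 KO cells S1 and S2 were the higher pair for both. Tmem119 and Tgm2 correlated at r = 0.295 (rho = 0.354).

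**Figure D3:**
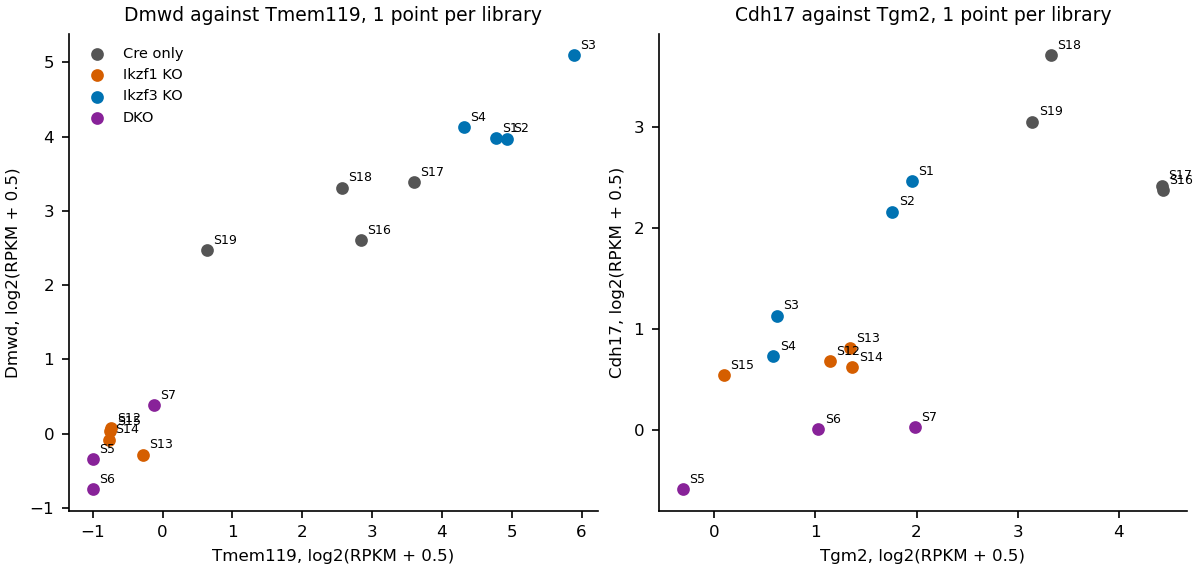
Dmwd against Tmem119 (left) and Cdh17 against Tgm2 (right), both axes log2(RPKM + 0.5), 1 point per library, coloured by genotype and labelled with the library. The left plot is a single ascending band ordered by genotype (r = 0.969), while on the right the Cre only libraries split into S16 with S17 and S18 with S19.

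The genes most like each of the 4 over the 15 libraries were taken as the 5 highest Pearson correlations among the genes tested, leaving out predicted genes and antigen receptor segments. For Tmem119 these were Dmwd, Ceacam16, Smox, Pkp2 and Avil (r from 0.942 to 0.969). Smox, encoding the polyamine enzyme spermine oxidase, averaged 3.43 ± 1.58 RPKM (SD, n = 4) in Cre only, 1.02 ± 0.254 (SD, n = 4) in Ikzf1 KO, 12.2 ± 5.73 (SD, n = 4) in Ikzf3 KO and 1.14 ± 0.268 (SD, n = 3) in DKO cells. Avil, encoding the actin-binding protein advillin, averaged 37.0 ± 7.68 (SD, n = 4), 10.3 ± 0.517 (SD, n = 4), 95.2 ± 37.7 (SD, n = 4) and 9.65 ± 4.90 (SD, n = 3) RPKM in the same order. For Dmwd they were Slc41a2, Tmem119, Fam78b, Pla2g15 and Spry4 (r from 0.953 to 0.985). Slc41a2, a magnesium transporter gene, averaged 2.64 ± 0.185 (SD, n = 4), 0.497 ± 0.0982 (SD, n = 4), 3.69 ± 0.482 (SD, n = 4) and 0.390 ± 0.192 (SD, n = 3) RPKM.

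For Tgm2 the closest genes were Plekha1, Mmp9, Nsmaf, Dnajc21 and Cd69 (r from 0.901 to 0.926). Mmp9, encoding a gelatinase that cleaves extracellular matrix, averaged 62.3 ± 30.6 (SD, n = 4), 8.15 ± 2.06 (SD, n = 4), 7.96 ± 7.46 (SD, n = 4) and 5.38 ± 5.02 (SD, n = 3) RPKM in Cre only, Ikzf1 KO, Ikzf3 KO and DKO cells. Of the 5 genes, Mmp9 had the mean farthest below Cre only in each deleted genotype as a share of the Cre only mean. For Cdh17 they were Fam174b, Slc52a3, Rapgef6, Lfng and S100a11 (r from 0.929 to 0.958). Slc52a3, a riboflavin transporter gene, averaged 10.9 ± 2.83 (SD, n = 4), 4.16 ± 0.405 (SD, n = 4), 5.05 ± 1.41 (SD, n = 4) and 2.01 ± 0.710 (SD, n = 3) RPKM. Tgm2 ranked 161 of 10031 genes by likeness to Cdh17, and Cdh17 ranked 69 by likeness to Tgm2.

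**Figure D4:**
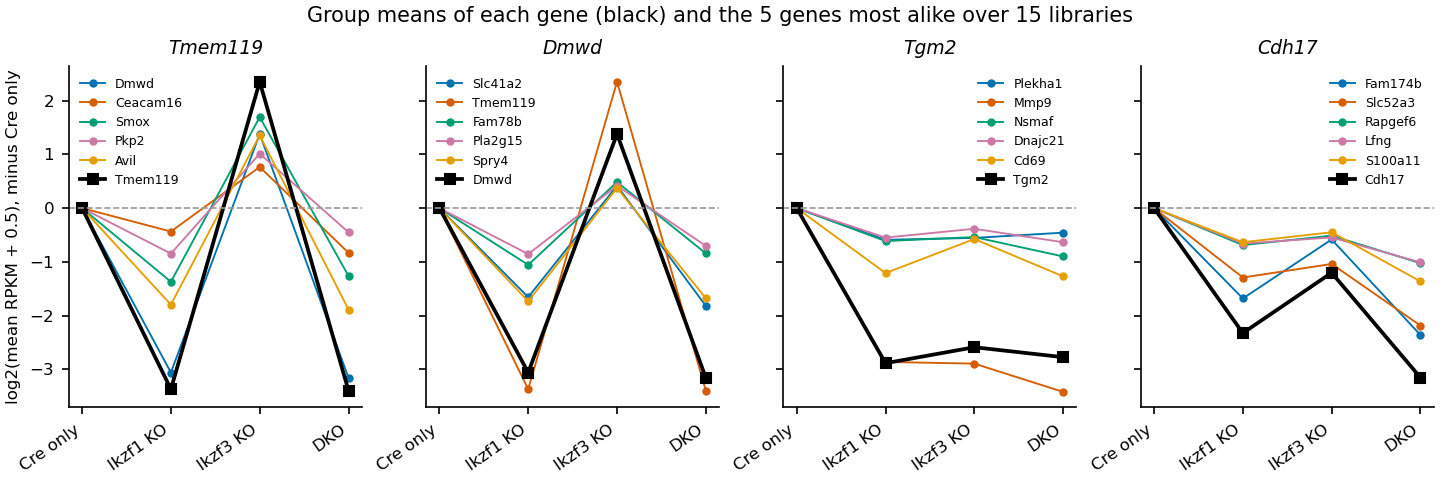
Log2(mean RPKM + 0.5) of each genotype minus that of Cre only, for each of the 4 genes (black squares) and the 5 genes with the highest correlation over 15 libraries (coloured circles). The genes like Tmem119 and Dmwd lie above Cre only in Ikzf3 KO and below it in Ikzf1 KO and DKO. Of those like Tgm2, Mmp9 alone lies near the level of Tgm2.

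Neighbouring genes were read to see whether a change was limited to the gene. The 3 nearest genes on each side of the 4 genes in the table were taken, 24 in all, of which 20 passed the filter. In DKO against Cre only cells 1 of the 20 fell and none rose, with a median log2 change of -0.22 against -0.001 for all genes and 18.7% of all genes called. In Ikzf1 KO cells 2 fell and 1 rose (median -0.09), with 6.32% of all genes called, and in Ikzf3 KO cells 5 fell and 1 rose (median -0.19), with 14.2% of all genes called. The rise in Ikzf1 KO cells was that of Rad54b near Cdh17 (log2 change 0.62, adjusted p = 0.0416), lost under 10 of 28 alternatives (adjusted p up to 0.342). The falls in Ikzf3 KO cells were those of Ficd, Selplg and Coro1c near Tmem119 and of Gem and Pdp1 near Cdh17, from -0.55 to -1.40. Each of these 5 calls was lost under 14 to 18 of 28 alternatives. None of the 6 neighbours of Tgm2 was called in these 3 contrasts. Their log2 changes ran no further than those of Ralgapb in DKO cells, at -0.43.

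Gem, a small GTPase gene, lies 43.4 kb from Cdh17. Gem averaged 277 ± 130 (SD, n = 4) RPKM in Cre only, 84.2 ± 12.9 (SD, n = 4) in Ikzf1 KO, 113 ± 70.8 (SD, n = 4) in Ikzf3 KO and 81.4 ± 8.42 (SD, n = 3) in DKO cells. It fell in all 3 contrasts, with log2 changes of -1.58 (adjusted p = 0.0417), -1.40 (adjusted p = 0.0438) and -1.62 (adjusted p = 0.0256). The calls of Gem were lost under 11, 15 and 5 of the 28 alternatives, with an adjusted p of up to 0.404, 0.354 and 0.238. The lost calls in DKO cells were those without S6, S7, S16 or S17, or without S16 and S17 together. Pdp1, encoding a mitochondrial phosphatase on the other side of Cdh17, fell by 1.03 in Ikzf1 KO cells (adjusted p = 0.0115). That call was lost without S16 and S17 (adjusted p up to 0.152), and Pdp1 had a log2 change of -0.18 in DKO cells (adjusted p = 0.657).

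Around Dmwd, the genes on either side differed. On the upstream side Irf2bp1 and Sympk were not called in the 3 contrasts against Cre only cells. Foxa3, on the same side, did not pass the filter. It averaged 0.133 ± 0.083 RPKM (SD, n = 4) in Cre only, 0.793 ± 0.351 (SD, n = 4) in Ikzf1 KO and 0.0979 ± 0.0679 (SD, n = 4) in Ikzf3 KO cells. In DKO cells it averaged 1.18 ± 1.21 (SD, n = 3) RPKM, so its means were higher where Dmwd was low. Dmpk begins 1.1 kb past the end of Dmwd on the same strand and did not pass the filter. It had 6 to 22 reads per library in Ikzf3 KO, 2 to 6 in Cre only, 0 to 1 in Ikzf1 KO and 0 to 2 in DKO cells. Its range of 0.114 to 0.428 RPKM in Ikzf3 KO lay above the 0.0314 to 0.103 RPKM of Cre only cells. So the order of the genotypes was that of Dmwd at a far lower level, and reads running past the end of Dmwd were not tested for. Six5, a homeobox gene 11.8 kb away, averaged 0.189 ± 0.0595 (SD, n = 4) RPKM in Cre only and 1.13 ± 0.432 (SD, n = 4) RPKM in Ikzf3 KO cells, and it rose by 1.21 on the log2 scale (adjusted p = 0.00693). Without S3 and S4 this call was lost (adjusted p = 0.0635). In Ikzf1 KO cells Six5 had a log2 change of -0.17 (adjusted p = 0.819), and in DKO cells of 0.53 (adjusted p = 0.187).

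**Figure D5:**
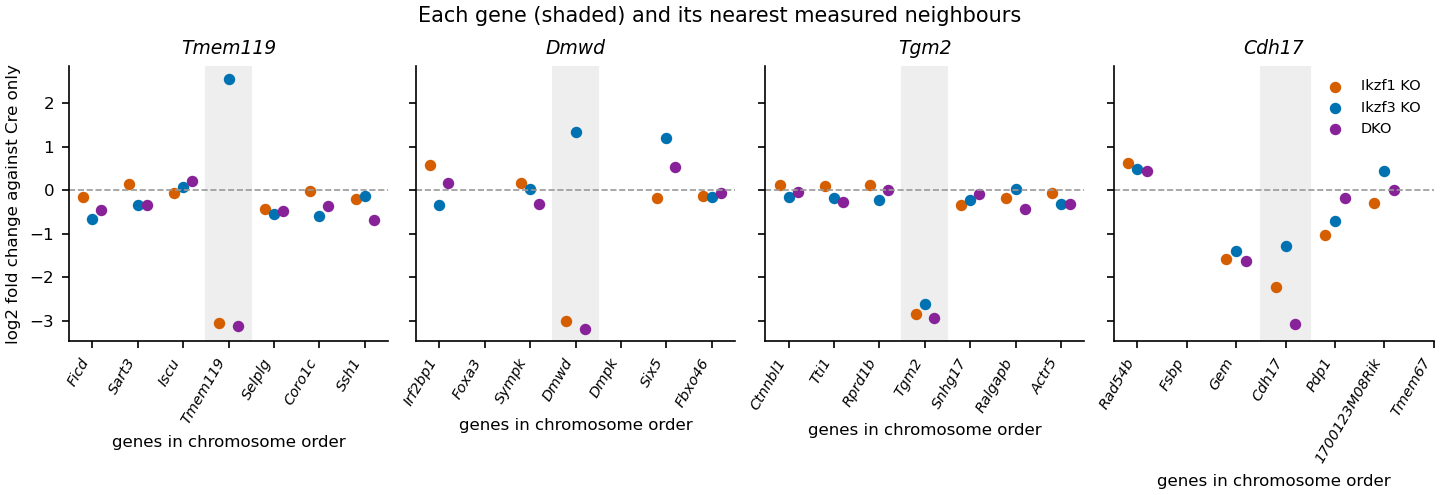
Log2 fold change against Cre only of each gene (shaded) and of its 3 nearest genes on each side, in chromosome order, for Ikzf1 KO, Ikzf3 KO and DKO. Genes without a point did not pass the filter on low values. The shaded genes lie farther from 0 than their neighbours in Ikzf1 KO and DKO, while in Ikzf3 KO Six5 lies close to Dmwd and Gem close to Cdh17.

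Related genes were read from lists that follow the roles of the 4 proteins. Over all genes tested, 6.32% were called in Ikzf1 KO, 14.2% in Ikzf3 KO and 18.7% in DKO against Cre only cells. These shares stand beside the counts of every list below, and lists this short can say little against them. For Tmem119, 7 of 18 genes of microglia and macrophages had a row and 4 passed the filter. None was called in Ikzf1 KO or Ikzf3 KO cells (median log2 changes -0.09 and 0.22), and Cd68 alone fell in DKO cells, by 1.48 (adjusted p = 0.0257, lost under 8 of 28 alternatives, with an adjusted p of up to 0.169). Summed levels of the list overlapped between the genotypes, from 98.7 to 134 RPKM in Cre only and 87.7 to 144 RPKM in Ikzf3 KO libraries, where Tmem119 was highest. The macrophage gene Lyz2 was at 0 in all Cre only libraries and averaged 1.38 RPKM in DKO cells. Of 12 genes of bone formation 5 were tested, none was called in a single knockout (medians -0.04 and 0.13), and Spp1, encoding osteopontin, fell in DKO cells from 1090 ± 413 (SD, n = 4) to 174 ± 167 (SD, n = 3) RPKM (adjusted p = 0.00857). The call of Spp1 was lost in 2 settings, with S16 and S17 left out and without S5, S15, S18 and S19, with an adjusted p of up to 0.0821.

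For Dmwd, the list held the deubiquitinases Usp1, Usp12 and Usp46 with their WD-repeat partners Wdr20 and Wdr48 and the phosphatases Phlpp1 and Phlpp2. None of the 7 genes tested was called in any of the 3 contrasts, where 6.32%, 14.2% and 18.7% of all genes were called. With 7 genes this differs little from those shares. Their median log2 changes were 0.19, -0.07 and -0.10 in Ikzf1 KO, Ikzf3 KO and DKO cells, and Wdr20 had changes of 0.10, 0.12 and -0.10.

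For Tgm2, 2 of 10 genes of the transglutaminase family had a row, and Tgm2 itself was the only one to pass the filter. Of 8 genes of cell surface partners 5 were tested. Adgrg1, encoding an adhesion receptor (GPR56) that binds Tgm2, rose by 2.77 in Ikzf3 KO cells (adjusted p = 0.0061), while the other 4 (Itgb1, Itgb3, Mfge8 and Sdc4) were not called in the 3 contrasts against Cre only cells. Adgrg1 averaged 1.38 ± 0.671 (SD, n = 4) RPKM in Cre only and 18.6 ± 22.1 (SD, n = 4) RPKM in Ikzf3 KO cells. Its call was lost with only the 2 groups in the fit and without S5, S15, S18 and S19 (adjusted p up to 0.0774).

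For Cdh17, 7 of 18 cadherin family genes had a row and 5 were tested. Beside Cdh17, the protocadherin gene Pcdhgc3 rose from 0.189 ± 0.117 (SD, n = 4) RPKM in Cre only to 1.23 ± 0.216 (SD, n = 4) in Ikzf1 KO and 2.91 ± 0.405 (SD, n = 3) in DKO cells (adjusted p = 0.000221 and 6.36e-07). The desmosomal gene Dsc2 fell in DKO cells by 1.59 (adjusted p = 0.0393), a call lost under 11 of 28 alternatives with an adjusted p of up to 0.47. Cdh1, the gene of E-cadherin, averaged 13 ± 6.16 (SD, n = 4) RPKM in Cre only and 3.21 ± 0.242 (SD, n = 4) in Ikzf1 KO cells, with a log2 change of -1.73 (adjusted p = 0.0907). Of 7 genes of catenins, linkers and integrin chains 5 were tested, among them Itga2, which is also in the NK cell list. Vcl, encoding vinculin, rose in Ikzf1 KO and DKO cells by 1.44 and 2.01 (adjusted p = 0.00444 and 0.000198, the former lost without S16 and S17 at 0.0639). Itga2 fell in both single knockouts, with log2 changes of -1.15 and -1.12 (adjusted p = 0.018 and 0.0143, lost under 5 and 3 of 28 alternatives, with an adjusted p of up to 0.158 and 0.146). Jup, encoding plakoglobin, fell in DKO cells, with a log2 change of -1.74 (adjusted p = 0.00508, lost without S18 and S19 at 0.0576). The catenin genes Ctnnb1 and Ctnna1 were not called. Of 11 B cell genes, which bear on Cdh17 as a gene of B lineage cells, 3 had a row: Cd79b, Bank1 and Cd72. Cd79b lay between 0 and 2.23 RPKM over all libraries. Cd79b rose in Ikzf1 KO and DKO cells, by 1.08 and 1.18 on the log2 scale (adjusted p = 0.024 and 0.00988, lost under 6 and 2 of 27 alternatives, up to 0.179 and 0.0888), where Cdh17 was low. Cd72 fell in DKO cells (log2 change -0.82, adjusted p = 0.0335, lost under 9 of 28, up to 0.167) and Bank1 in Ikzf3 KO cells (log2 change -0.63, adjusted p = 0.0448, lost under 15 of 28, up to 0.238).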

How the data were processed

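Splenic NK cells of 4 genotypes, cultured in IL-15, were analysed in 15 libraries, with 3 or 4 per group. The authors deposited 1 table of RPKM per gene and library. STAR, featureCounts, limma 3.34.9 and the mm10 build are listed, without settings, in the submitters' processing notes, and per the labels' protocols the libraries were stranded and made from polyadenylated RNA. Reads were recovered from RPKM and exon lengths of GENCODE mouse release M21, in which 11732 genes were found, and 96.2% of these came out whole in all libraries within 0.02 read. Depth limits mainly genes with few reads, such as Tmem119 in deleted cells, and floors cover counting error only.

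Genes with at least 1 RPKM in at least 3 libraries were kept. Values of log2(RPKM + 0.5) were fitted over all 15 libraries, 1 mean for each genotype, using limma 3.58.1 in R 4.3.3 with a mean-variance trend and robust moderation, on 11 residual degrees of freedom, 2-sided, with calls at a Benjamini-Hochberg adjusted p below 0.05. Confidence intervals are at 95%. DKO against Ikzf1 KO was fitted with the rest and is given without a test, since it holds values that chose the genes. The fit was tested on simulated data. Alternatives changed the pseudocount, filter, scaling, weights, groups in the fit and libraries, and voom on recovered reads and leaving out S5, S15, S18 and S19 were added after the data were seen. Named genes were the 4 genes, Ikzf1 and Ikzf3, the 5 most correlated genes of each, the 3 nearest genes on each side, and called members of related lists. The genes and lists were chosen with earlier results of these data known. Python 3.11.15 was used for the rest.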

Additional observations from a re-analysis of the deposited data

Results flagged for a closer look

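In Ikzf1 KO cells Tmem119 was highest in S13, at 0.321 RPKM or 9 reads, apart from the other 3 libraries by 0.953 of the whole range. In Ikzf3 KO cells Dmwd was highest in S3, at 33.6 RPKM, apart from the others by 0.901 of the range. The gap rule is set to mark about 1 in 20 groups by chance if values are normally distributed, a rate not measured here.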

How the results depend on the processing

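No paired analysis was possible because the columns carry no replicate number. Falls in DKO against Cre only cells stayed called under 28 alternatives each, 15 of which left out 1 library. Where that library was of Ikzf1 KO or Ikzf3 KO cells, the log2 change stayed as it was by design. With 1 library left out, the log2 change ran from -3.72 to -2.73 for Tmem119, -3.49 to -2.92 for Dmwd, -3.48 to -2.33 for Tgm2 and -3.24 to -2.80 for Cdh17. Under the other 13 alternatives the highest adjusted p was 0.0146, 0.00203, 0.0306 and 0.0105 in the same order.

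In DKO against Ikzf1 KO cells, described without a test, the differences moved in both directions. Leaving out 1 library gave -0.36 to 0.074 for Tmem119, -0.48 to 0.087 for Dmwd, -0.63 to 0.52 for Tgm2 and -0.95 to -0.65 for Cdh17. They lay lower under voom, at -1.81 for Tmem119, -0.73 for Dmwd, -0.16 for Tgm2 and -1.55 for Cdh17, and with a pseudocount of 0.1, at -0.44, -0.43, -0.21 and -1.35. They lay higher with array weights, at 0.25, 0.12, 0.34 and -0.68, and without S5, S15, S18 and S19, at 0.037 for Tmem119 and 0.22 for Tgm2. The cause of these shifts was not tested. With only the groups compared and without S3 and S4, both groups stay whole, so the -0.85 of Cdh17 could not move. Its SE was 0.19 and 0.28 in these settings, against 0.39 in the fit reported.

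In DKO against Ikzf3 KO cells, leaving out 1 library gave -0.87 to 0.28 for Tgm2 and -2.10 to -1.53 for Cdh17. Tgm2 stood at 0.28 without S5, S15, S18 and S19 and at -0.96 without S3 and S4, and the cause was not tested. Cdh17 kept its call, with an adjusted p of up to 0.0472. Numbers of genes called over the whole table varied more: from 334 to 3634 in Ikzf1 KO, 448 to 3004 in Ikzf3 KO and 1040 to 4477 in DKO against Cre only cells, with 634, 1423 and 1872 in the fit reported. Against Ikzf1 KO they ran from 395 to 3965 (750 reported) and against Ikzf3 KO from 678 to 3099 (2012 reported). Under a pseudocount of 0.1 the described Ikzf1 KO change of Tmem119 was -4.34 and under voom -5.05, so the fold of genes with few reads depends on the scale.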
